A study of Mus musculus with 31 samples.

Results

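Slc35a1, Slc35a2, Slc35a3, Slc35a4 and Slc35a5, the Slc35a family of nucleotide sugar transporters, are 5 of the 52636 gene identifiers measured by RNA-sequencing in the striatum, caudate putamen (CPu), of 31 mice. They were chosen by name because Slc35a4 ranked first among all genes, by fold change over its error, in the comparison of imipramine with vehicle in WT mice, where it was lower, so the values of that comparison and of the mice in it served the choice and are given as a description. All mice were labelled as females of strain C57BL/6NTac-Brd1, 8 to 11 weeks old, either WT or Brd1+/-, that is, carrying on 1 allele a deletion made in Brd1 with a vector that put loxP sites around several of its exons. They received subcutaneous saline (vehicle; 8 WT and 7 Brd1+/- mice) or imipramine (IMN), a tricyclic antidepressant, at 10 mg/kg in saline (8 WT and 8 Brd1+/- mice), once on each of 2 days, and went through the tail suspension, open field and forced swim tests before the brain was taken. WT and Brd1+/- mice were matched by litter, and all of them, controls included, were injected and swam. The tissue was a punch of the right CPu, and each mouse was sequenced on its own.

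Members of the Slc35a family sit in the membrane of the Golgi apparatus and carry activated sugars from the cytosol into its lumen, where glycosyltransferases build them into the glycans of proteins and lipids. Slc35a1 carries CMP-sialic acid, Slc35a2 carries UDP-galactose, and Slc35a3 carries UDP-N-acetylglucosamine (UDP-GlcNAc). Slc35a4 and Slc35a5 are related by sequence and their substrates are less well settled, and the Slc35a4 transcript also holds an upstream reading frame that is translated into a separate small protein. In brain, sialic acid and galactose cap the glycans of gangliosides and of adhesion molecules such as polysialylated NCAM.

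The labels and the tissue were checked first. Under vehicle, Brd1 averaged 22.5 ± 2.97 TPM in WT and 13.4 ± 2.02 TPM in Brd1+/- mice (SD, n = 8 and 7), and under IMN 19.9 ± 2.67 and 12.8 ± 1.04 TPM (SD, n = 8 each), with exact permutation p (both sides counted) of 0.000311 and 0.000155, the smallest these group sizes allow. TPM is a transcript abundance divided by gene length and scaled so that every mouse has the same total. The summed TPM of 10 markers of cortical excitatory neurons ran from 20.5 to 2311 in vehicle administered WT mice, against 25.0 to 272 in vehicle administered Brd1+/-, 21.4 to 1285 in IMN administered WT and 20.9 to 457 in IMN administered Brd1+/- mice. In the same order, 10 markers of striatal projection neurons summed to 293 to 10796, 8740 to 10117, 5220 to 9628 and 7067 to 10057 TPM, and Adora2a, a defining striatal marker, was as low as 1.02 TPM in a vehicle administered WT mouse. On the mean log2 level of these lists, WT mice under vehicle exceeded all Brd1+/- mice under vehicle in cortical markers in 6 of 8 cases, and 6 of the 8 were lower than all of them in striatal markers. Mouse 7 of that WT group is labelled female and had 26.8 TPM of Y-linked transcripts, where no other mouse passed 0.188 TPM. Results that turn on this mouse are also given without it. In bulk tissue, fewer cells of a type and less RNA per cell cannot be told apart.

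All 5 genes were above 0.1 TPM in every mouse, so none was lost to the filter on low values. Slc35a4 was the most abundant over the 31 mice, at 28.4 ± 7.38 TPM (SD), followed by Slc35a5 at 24.0 ± 9.05, Slc35a1 at 14.1 ± 1.85, Slc35a2 at 13.4 ± 2.78 and Slc35a3 at 7.61 ± 1.83 TPM. TPM is a level per length, so these levels can be set side by side. Neighbours in this order were not all distinct: Slc35a4 was above Slc35a5 in 20 of 31 mice, and Slc35a1 above Slc35a2 in 18. Slc35a5 was above Slc35a1 in 28 mice. Slc35a3 was below Slc35a2 in 30 mice and below the other three in all 31. Slc35a1 varied least between mice, with a coefficient of variation of 13.2%, and Slc35a5 most, at 37.6%.

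**Figure D1:**
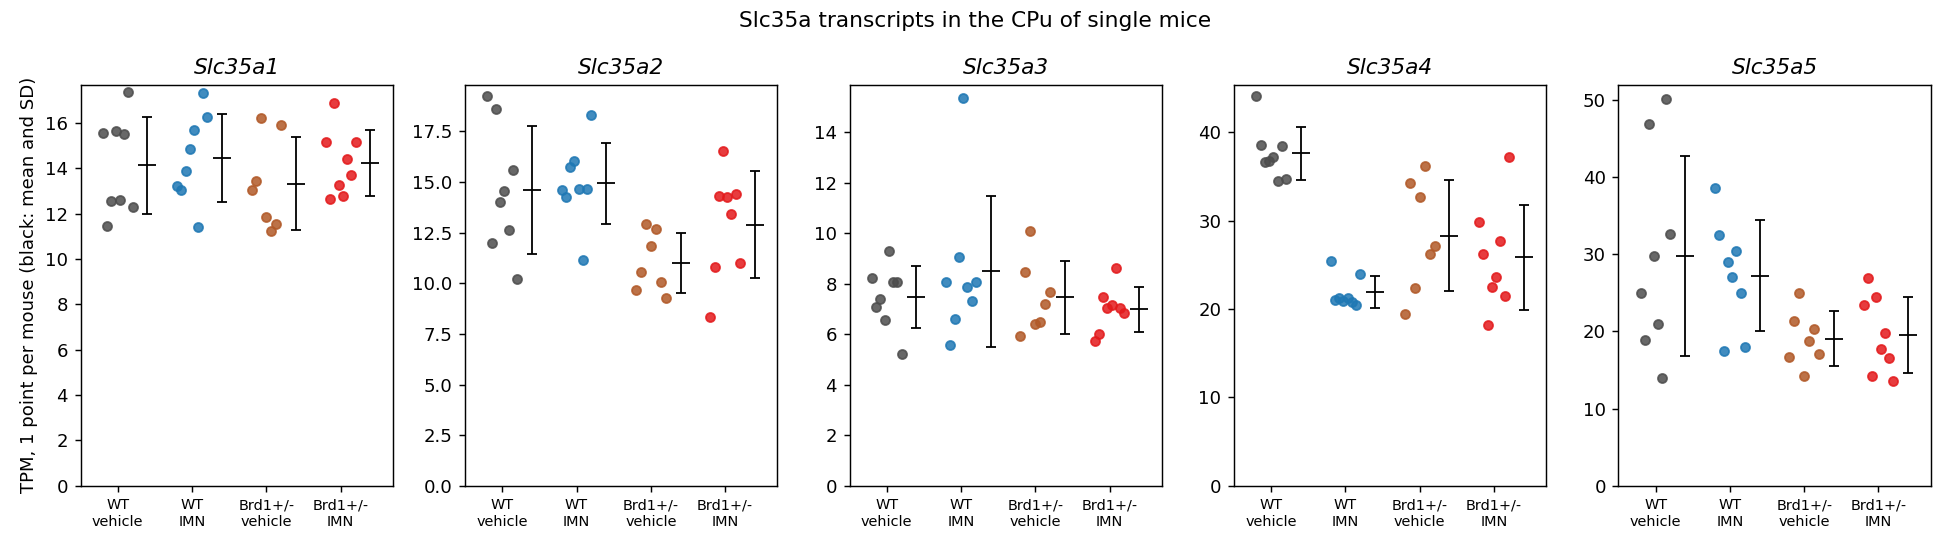
TPM of each Slc35a gene (vertical axis, starting at 0) in the 4 groups of mice, with 1 point per mouse and the group mean and SD in black beside the points. For Slc35a4 the WT groups do not overlap, and the 15 Brd1+/- mice spread over both WT ranges. For Slc35a5 the highest values, up to 50.1 TPM, are in vehicle administered WT mice.

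Slc35a4 in WT mice is the value that chose the family. Its level in the 8 vehicle administered WT mice was 34.5 TPM at the lowest, 37.0 at the median and 44.0 at the highest. In the 8 IMN administered WT mice it was 20.5, 21.1 and 25.5 TPM. Every IMN administered WT mouse was thus below every vehicle administered WT mouse, which was so for 27 of the 23579 genes tested in that comparison (0.115%). The mean of 21.9 ± 1.81 TPM under IMN (SD, n = 8) was 58.2% of the 37.6 ± 3.00 TPM under vehicle (SD, n = 8), a log2 fold change of TPM + 1 of −0.75 (SE 0.07) where the median of all genes was −0.08. Without mouse 7 of the vehicle administered group it was also −0.75. That put Slc35a4 first by p, that is, by fold change over its error, and not by size, since other genes had larger fold changes. The next genes in this ranking were Gm8239, which was higher by 1.46 (SE 0.23), and Osbpl3, which was lower at −0.71 (SE 0.12).

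The tissue markers of single mice stood beside Slc35a4 as follows. Mice 6 and 8 of the vehicle administered WT group, with 20.5 and 21.1 TPM of summed cortical markers, had 34.5 and 34.7 TPM of Slc35a4. These were the lowest values of the group, and mouse 1, with the most cortical markers (2311 TPM), had the highest, 44.0 TPM. The mice between did not all keep this order. In the IMN administered WT group, mice 5, 8 and 1 had the most cortical markers, at 1285, 572 and 214 TPM. Their Slc35a4, at 21.2, 24.0 and 25.5 TPM, was the highest of that group. With the mean level of cortical or of striatal markers as a covariate the log2 fold change was −0.69 and −0.71. The summed level of 5 erythroid markers also differed, with a median of 351 TPM and a range of 211 to 403 in vehicle administered WT mice against 199 TPM and 163 to 323 under IMN, and with their mean log2 level as a covariate, chosen after the data were seen, the log2 fold change was −0.72. The part of these markers in the result was not tested beyond these covariates.

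In Brd1+/- mice Slc35a4 did not separate by treatment. In vehicle administered Brd1+/- mice 1 to 7 it was at 19.4, 34.2, 22.4, 32.6, 36.2, 26.2 and 27.1 TPM. The IMN administered Brd1+/- mice 1 to 8 had 29.8, 26.2, 18.2, 22.5, 23.6, 27.7, 21.4 and 37.2 TPM. These groups overlapped along nearly their whole length, and 6 of the 8 mice under IMN lay within the vehicle range. The means were 28.3 ± 6.27 (SD, n = 7) and 25.8 ± 5.90 TPM (SD, n = 8), and limma gave a log2 fold change of −0.13 (SE 0.15, 95% interval −0.44 to 0.19, adjusted p = 0.912), which turned to 0.034 with striatal markers as a covariate. With single mice left out the log2 fold change ran from −0.21 to −0.06. Of all 15 Brd1+/- mice, 2 were within the range of vehicle administered WT mice, 4 within that of IMN administered WT mice, 7 between the WT ranges and 2 below both. The coefficient of variation was 22.2% and 22.8% in the Brd1+/- groups under vehicle and IMN, and 7.99% and 8.27% in the WT groups, whose small spread is part of what ranked the gene first and is given as a description.

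Set side by side, the effect of IMN on Slc35a4 was −0.75 in WT and −0.13 in Brd1+/- mice, a difference of 0.63 on the log2 scale (SE 0.16), and over 10 alternative settings it stayed between 0.48 and 0.65. No test is given, since the WT effect chose the gene. The genotypes also stood in opposite order by treatment. Brd1+/- mice had less Slc35a4 than WT under vehicle, with a log2 fold change of −0.42 (SE 0.12), and more under IMN, at 0.20 (SE 0.11). Over alternative settings the value under vehicle ran from −0.44 to −0.23. With single mice left out the value under IMN ran from 0.13 to 0.27. Both comparisons of genotype share their WT mice with the comparison that chose the gene and are likewise descriptions.

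The share of Slc35a4 in the summed level of the family was lowest in IMN administered WT mice. Its share and its order with Slc35a5 in WT mice rest on the values that chose the gene, and are descriptions. The 5 transcripts summed to 104 ± 16.2 TPM in vehicle administered WT mice, 87.0 ± 7.67 in IMN administered WT, 79.1 ± 8.23 in vehicle administered Brd1+/- and 79.5 ± 5.38 in IMN administered Brd1+/- mice (SD, n = 8, 8, 7 and 8). Slc35a4 made up 36.9% of this sum on average in vehicle administered WT mice and 25.2% in IMN administered WT mice. In Brd1+/- mice its share was 35.6% under vehicle and 32.3% under IMN. Slc35a5 was the more abundant of the pair in 6 of 8 IMN administered WT mice, and in 2 of 8, 1 of 7 and 2 of 8 mice of the vehicle administered WT, vehicle administered Brd1+/- and IMN administered Brd1+/- groups.

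On chromosome 18 (GRCm38, GENCODE M21) Slc35a4 spans 36679215 to 36683861 on the plus strand. Its first 152 bases overlap the first bases of Apbb3 on the minus strand, which is not analysed here, and whether counting used strand is not given in the sources used here, so reads from the overlap cannot be told apart. Its nearest neighbours with values were Sra1, at 55.7 ± 4.43 TPM in vehicle administered WT mice and 49.0 ± 2.32 under IMN, and E230025N22Rik, at 2.05 ± 2.21 and 3.15 ± 1.22 TPM (SD, n = 8 each). Their log2 fold changes were −0.18 (SE 0.06) and 0.72 (SE 0.40).

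The transporters with well known substrates gave values near 0 in the same comparison. Slc35a1, the CMP-sialic acid transporter, was at 14.1 ± 2.14 TPM in vehicle administered WT mice and 14.5 ± 1.94 under IMN, a log2 fold change of 0.03 (SE 0.10). Slc35a2, the UDP-galactose transporter, had 0.05 (SE 0.12), Slc35a3, the UDP-GlcNAc transporter, had 0.12 (SE 0.15), and Slc35a5 had −0.05 (SE 0.24). The values of Slc35a1, Slc35a2 and Slc35a5 changed sign under at least 1 alternative setting. That of Slc35a3 ran from 0.050 with sample quality weights to 0.29 with cortical markers as a covariate, and was 0.0052 without mouse 5 of the IMN administered group and 0.063 without mouse 8 of the vehicle administered group.

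IMN in Brd1+/- mice was the comparison in which all 5 genes could be tested. None of the 5 passed p under 0.01 in limma, where 1.83% of 23020 genes did, none passed p under 0.05, where 7.09% did, and none passed an FDR of 5%, where 0.0% did. The largest difference was that of Slc35a2, at 11.0 ± 1.47 TPM under vehicle (SD, n = 7; lowest 9.27, median 10.6, highest 12.9) and 12.9 ± 2.63 under IMN (SD, n = 8; 8.34, 13.8 and 16.5). Of the IMN administered Brd1+/- mice, 5 were above every vehicle administered one and 1 was below. Its log2 fold change was 0.20 (SE 0.12, 95% interval −0.06 to 0.46, adjusted p = 0.789). With the striatal marker level as a covariate, in which 5 of the 8 IMN administered mice were below every vehicle administered one, it was 0.048 (limma adjusted p = 0.978), and the value farthest from 0 was then that of Slc35a3, at −0.19 (adjusted p = 0.868). Slc35a1 had 0.10 (95% interval −0.10 to 0.29), Slc35a3 −0.07 (−0.30 to 0.15) and Slc35a5 0.02 (−0.29 to 0.33), with adjusted p of 0.880, 0.930 and 0.991. The intervals do not show that the genes were unchanged.

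**Figure D2:**
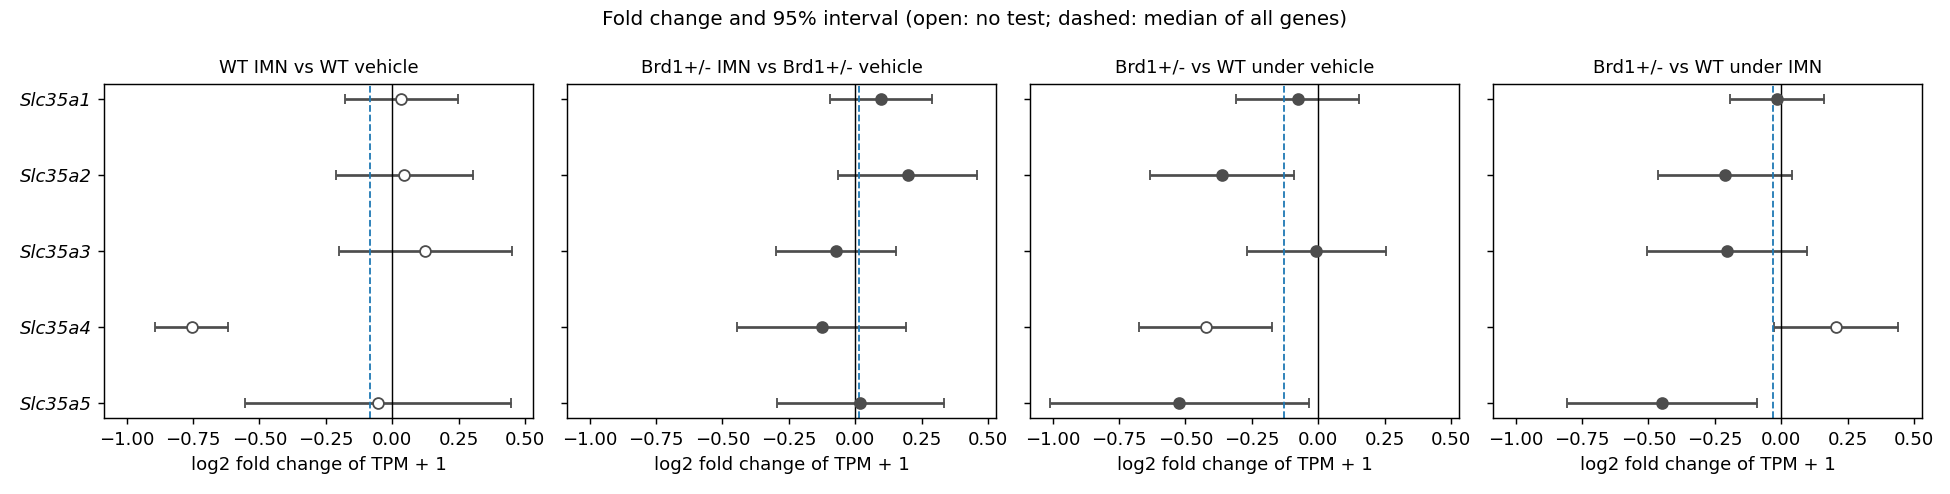
Log2 fold change of TPM + 1 of the 5 genes (horizontal axis) in each of the 4 comparisons, with 95% intervals from limma. Open points are values without a test and the dashed line is the median of all genes. Slc35a4 stands at −0.75 with IMN in WT mice and at −0.13 in Brd1+/- mice, and Slc35a5 lies below 0 in both comparisons of genotype.

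Between genotypes, Slc35a5 had the lowest log2 fold change of the 4 genes tested in both comparisons, and Slc35a2 the next lowest under vehicle. Slc35a5 was at 14.0 TPM at the lowest, 27.3 at the median and 50.1 at the highest in vehicle administered WT mice, and at 14.3, 18.7 and 25.0 TPM in vehicle administered Brd1+/- mice. Under IMN it was at 17.5, 28.0 and 38.6 TPM in WT mice and 13.6, 18.7 and 26.9 TPM in Brd1+/- mice. Under vehicle 4 of 8 WT mice were above every Brd1+/- mouse, and under IMN 5 of 8 were, with overlap among the rest in both.

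Slc35a5 had a log2 fold change of −0.52 under vehicle (SE 0.23, 95% interval −1.01 to −0.04, adjusted p = 0.137) and −0.45 under IMN (SE 0.17, 95% interval −0.81 to −0.09, adjusted p = 0.998). Means went from 29.7 ± 13.0 to 19.0 ± 3.53 TPM under vehicle (SD, n = 8 and 7) and from 27.2 ± 7.13 to 19.6 ± 4.91 TPM under IMN (SD, n = 8 each). Neither difference passed an FDR of 5%. Under vehicle it did so with sample quality weights (−0.73, limma adjusted p = 0.0157), where 29.5% of all genes did, and without WT mouse 6 (−0.66, adjusted p = 0.0361), where 19.9% did. With cortical markers as a covariate it was −0.34 (limma adjusted p = 0.760), with striatal markers −0.69 (adjusted p = 0.542), and with median-of-ratios scaling −0.34 (adjusted p = 0.394). Without mouse 7 of the vehicle administered WT group, the one with the highest Slc35a5, the difference under vehicle was −0.40 (limma adjusted p = 0.226), so it no longer passed p under 0.05. In each of the 11 alternative settings of either comparison the sign stayed negative, from −0.73 to −0.33 under vehicle and from −0.47 to −0.40 under IMN.

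Slc35a2 was at 10.2 TPM at the lowest, 14.3 at the median and 19.3 at the highest in vehicle administered WT mice, against 9.27, 10.6 and 12.9 in vehicle administered Brd1+/- mice, and 5 of 8 WT mice were above every Brd1+/- mouse. The log2 fold change was −0.36 (SE 0.13, 95% interval −0.63 to −0.09, adjusted p = 0.0781), and −0.35 without WT mouse 7 (limma adjusted p = 0.126). It passed an FDR of 5% with sample quality weights (−0.42, limma adjusted p = 0.00877; 29.5% of all genes), with all groups in 1 fit (adjusted p = 0.0416; 19.5%), with the replicate block (adjusted p = 0.0416; 15.4%) and without WT mouse 8 (−0.43, adjusted p = 0.0188; 23.8%). It moved the other way, to −0.19 with cortical markers as a covariate (limma adjusted p = 0.727), −0.18 with median-of-ratios scaling (adjusted p = 0.317) and −0.16 with quantile normalization (adjusted p = 0.364), and was −0.35 with striatal markers (adjusted p = 0.542). Under IMN the values were 11.1, 14.7 and 18.3 TPM in WT and 8.34, 13.8 and 16.5 TPM in Brd1+/- mice, with a log2 fold change of −0.21 (SE 0.12, 95% interval −0.46 to 0.04, adjusted p = 0.998). With single mice left out the log2 fold change under IMN ran from −0.27 to −0.13. Only 1 WT mouse was above every Brd1+/- mouse there.

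Slc35a1 and Slc35a3 were nearer to 0 under vehicle. Slc35a1 had a log2 fold change of −0.08 under vehicle (95% interval −0.31 to 0.15, adjusted p = 0.660) and −0.02 under IMN (−0.19 to 0.16, adjusted p = 0.998). Slc35a3 had −0.01 (−0.27 to 0.25, adjusted p = 0.974) and −0.21 (−0.51 to 0.10, adjusted p = 0.998), and its WT mean under IMN, 8.48 ± 2.97 TPM (SD, n = 8), included mouse 5 at 15.4 TPM, without which the log2 fold change under IMN was −0.085 (limma adjusted p = 1.00). Under vehicle the direction of both genes depended on scaling: with median-of-ratios scaling, which moved the median of all genes from −0.13 to 0.00, Slc35a1 was at 0.10 and Slc35a3 at 0.16. Slc35a2 and Slc35a5 stayed lower there, at −0.18 and −0.34.

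In counts, none of the 4 genes tested between genotypes (Slc35a4 left out) passed p under 0.01 in limma under vehicle, where 13.6% of 23200 genes did, and none passed an FDR of 5%, where 0.0% did. Slc35a2 and Slc35a5 were lower at p under 0.05, where 26.2% of all genes were, so 2 of 4 members stand beside a background in which such calls were common. Neither was at p under 0.05 with cortical markers as a covariate, where 6.88% of all genes were lower, or with median-of-ratios scaling (11.9%) or quantile normalization (11.2%), and both were with striatal markers (8.16%). Under IMN none passed p under 0.01 (0.703% of 23339 genes) or an FDR of 5% (0.00428%), and Slc35a5 alone was lower at p under 0.05 (2.9%).

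Averaged over both treatments in a fit of all 31 mice, a comparison chosen after the data were seen, Slc35a5 was lower in Brd1+/- mice at a log2 fold change of −0.49 (SE 0.15, adjusted p = 0.0469) and Slc35a2 at −0.29 (SE 0.09, adjusted p = 0.0485). This put 2 of the 4 under an FDR of 5%, where 5.93% of 25394 genes were. With the cortical marker level as a covariate the values were −0.42 and −0.20, with adjusted p of 0.224 and 0.272, and with striatal markers −0.57 and −0.27, with adjusted p of 0.331 and 0.363. Median-of-ratios scaling gave −0.37 and −0.18, with adjusted p of 0.166 and 0.210. Without WT mouse 7 they were −0.43 and −0.28, with adjusted p of 0.0728 and 0.0724. With each of the 31 mice left out in turn, Slc35a5 passed an FDR of 5% in 6 fits and Slc35a2 in 8. The calls thus did not hold with tissue markers, with the other scaling or without most single mice, while the direction did.

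**Figure D3:**
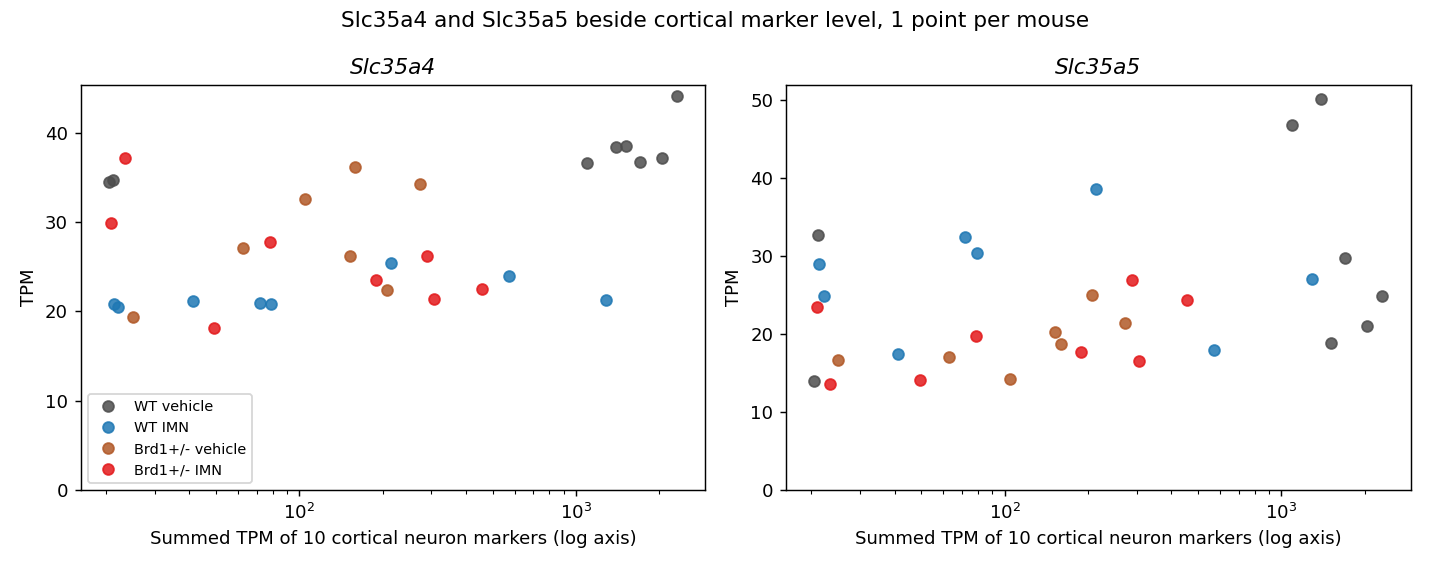
TPM of Slc35a4 and Slc35a5 (vertical axes) against the summed TPM of 10 cortical neuron markers (horizontal log axis), with 1 point per mouse and colors for the 4 groups. In WT mice under vehicle, whose cortical markers run from 20.5 to 2311 TPM, Slc35a4 stays between 34.5 and 44.0 TPM. The lowest and highest values of both are in the same mice. Slc35a5 spans 14.0 to 50.1 TPM in the same mice.

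Single mice show how Slc35a5 stood beside these markers in the vehicle administered WT group. Mouse 6, with 20.5 TPM of cortical markers, had the lowest Slc35a5, 14.0 TPM. Mouse 8, with 21.1 TPM of cortical markers, had 32.6 TPM, and mice 3 and 7, with 1091 and 1389 TPM, had 46.8 and 50.1 TPM. Mouse 2, with 1512 TPM, had 18.8 TPM. The part of these markers in the level of Slc35a5 was not tested beyond the covariates above.

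Slc35a5 lies on the minus strand of chromosome 16, from 45139573 to 45158706, head to head with Atg3, an enzyme of autophagosome formation, whose start is 79 bases away. The bases between both genes are shown because they form the upstream region of the member that was lowest in Brd1+/- mice relative to WT, and those upstream of Slc35a1 because that gene was the steadiest. Both come from RefSeq promoter windows of GRCm38.p6, 250 bases before to 50 after a start, which were at hand for Slc35a1, Slc35a2, Slc35a3 and Slc35a5, and both were trimmed to the stretch without a GENCODE exon. They are written 5′ to 3′ on the minus strand, for Slc35a5 chr16:45158707-45158784 and for Slc35a1 chr4:34687439-34687688, with matches to the motifs below in capitals.
Slc35a5: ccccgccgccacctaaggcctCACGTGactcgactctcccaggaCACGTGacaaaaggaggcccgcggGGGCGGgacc
Slc35a1: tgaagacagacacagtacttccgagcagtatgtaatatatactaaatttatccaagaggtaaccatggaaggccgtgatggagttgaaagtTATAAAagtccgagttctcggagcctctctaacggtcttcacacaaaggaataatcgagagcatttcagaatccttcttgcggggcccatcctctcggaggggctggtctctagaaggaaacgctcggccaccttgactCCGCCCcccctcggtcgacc
The capitals in Slc35a5 match a pair of E-boxes (CACGTG) and a GC box (GGGCGG). Those in Slc35a1 match the letters of a TATA box (TATAAA) and a GC box read on the other strand. These are matches of letters only, and their distance from the start of the gene was not considered.

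Over whole windows of 300 bases and both strands, CACGTG was found 2 times in that of Slc35a5 and not in those of Slc35a1, Slc35a2 and Slc35a3, and 7.15% of all 32851 windows hold it. GGGCGG was found in those of Slc35a1, Slc35a2 and Slc35a5 (35.7% of all windows), CCGGAAG, an ETS motif, in those of Slc35a1 and Slc35a5 (8.86%), and TATAAA in that of Slc35a1 (13.6%). TGACGTCA, the cAMP response element, ACGTGGC, the Golgi stress element, and CCAAT were in none of the 4, and in 1.79%, 2.58% and 37.4% of all windows. CACGTG and ACGTGGC share letters, so their matches can overlap. The windows were 52.3% (Slc35a1), 62.0% (Slc35a2), 65.0% (Slc35a3) and 70.3% (Slc35a5) G and C, where the median of all windows was 52.7%.

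Atg3, across the shared upstream region, was at 31.4 ± 5.16 TPM in vehicle administered WT, 24.9 ± 1.82 in vehicle administered Brd1+/-, 27.4 ± 3.69 in IMN administered WT and 26.6 ± 3.54 TPM in IMN administered Brd1+/- mice (SD, n = 8, 7, 8 and 8). Its log2 fold change between genotypes was −0.31 under vehicle (SE 0.10, limma adjusted p = 0.0660) and −0.04 under IMN (SE 0.09, adjusted p = 0.998). Slc35a5 on the other side had −0.52 and −0.45. Slc35a2, on the plus strand of chromosome X from 7884028 to 7894492, ends 27 bases from the end of Pqbp1, which was at 73.1 ± 6.82 and 62.0 ± 5.27 TPM in vehicle administered WT and Brd1+/- mice (SD, n = 8 and 7), a log2 fold change of −0.23 (SE 0.07, adjusted p = 0.0649).

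Slc35a1 on chromosome 4 (34663257 to 34687438, minus strand) holds the small RNA gene Gm22849, which averaged 0.107 to 0.229 TPM over the groups. Slc35a3 on chromosome 3 (116669470 to 116712831, minus strand) overlaps Gm43191 on the same strand, which was listed at 0 in all mice.

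The genes most like each member over the 31 mice were ranked by Pearson's r of log2(TPM + 1) among 17391 genes with a mean of at least 1 TPM, as a description in which group differences and tissue makeup are part of the likeness. Slc35a4 was most like Slc39a13, a zinc transporter, at r = 0.79, followed by 9330171B17Rik, Hip1r, Mettl26 and Bcam at 0.73, 0.72, 0.72 and 0.71. Slc39a13 was at 27.7 ± 2.29 TPM in vehicle administered WT mice, 20.4 ± 2.61 in IMN administered WT, 22.2 ± 4.57 in vehicle administered Brd1+/- and 22.0 ± 2.08 TPM in IMN administered Brd1+/- mice (SD, n = 8, 8, 7 and 8), and the group means stood in the order of those of Slc35a4. With the group means taken out, the r of these 5 genes was 0.50 to 0.60.

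Slc35a1 was most like Gm16001, Mid2 and Mdm2 (r = 0.77, 0.76 and 0.76), and Slc35a2 most like Zc2hc1a, Islr2 and Ywhaq (0.74, 0.73 and 0.71). Slc35a3 was most like Ppat, an enzyme of purine synthesis, Slf2 and Ino80d (0.77, 0.73 and 0.73). Slc35a5 had the weakest best match, Cks1b at 0.60, then Gm23450 and Zfp316 at 0.58 each. Among themselves the 5 members had r from −0.13 (Slc35a1 and Slc35a4) to 0.36 (Slc35a1 and Slc35a3), so no member was among the closest genes of another.

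Other genes of the same pathway were taken from a list of 86: further Slc35 transporters, the enzymes that make CMP-sialic acid, UDP-galactose and UDP-GlcNAc, and the sialyl-, galactosyl- and GlcNAc-transferases and sialidases that use or remove these sugars. Of these, 84 could be tested. Under vehicle, 16 were lower in Brd1+/- mice at p under 0.01 and none was higher, which is 19.0% lower where 12.1% of all genes were lower and 1.47% higher. The median log2 fold change was −0.22, beside −0.13 for all genes, 69 values were negative, and none of the 84 passed an FDR of 5% in limma, while 40 passed p under 0.05. Of these 40, 36 were lower, as were 26.2% of all genes at that threshold, and 4 were higher, as were 4.68%: Slc35d3 at 1.38, Gcnt2 at 1.14, St8sia3 at 0.72 and Mgat5b at 0.60, which were named after their values were seen.

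Some of the 16 act before the transporters. Uap1, which makes UDP-GlcNAc, was at 36.0 ± 8.70 TPM in vehicle administered WT and 24.9 ± 2.27 TPM in vehicle administered Brd1+/- mice (SD, n = 8 and 7), a log2 fold change of −0.49 (SE 0.13). Lower at p under 0.01 were 2 of 3 genes of CMP-sialic acid supply (Cmas and Nans), 2 of 5 of UDP-galactose supply and 1 of 8 of UDP-GlcNAc supply (Uap1), where 12.1% of all genes were lower.

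Among the enzymes after the transporters, 4 of 19 sialyltransferases, 2 of 15 galactosyltransferases, 2 of 11 GlcNAc-transferases and 1 of 4 sialidases were lower, beside the same 12.1% of all genes. St8sia5, a ganglioside sialyltransferase, was at 42.3 ± 26.6 and 7.46 ± 1.82 TPM, at −1.93 (SE 0.52), and St6galnac4 at 19.5 ± 6.38 and 10.6 ± 1.59 TPM, at −0.75 (SE 0.20). Neu1, the lysosomal sialidase, was at 29.1 ± 6.90 and 19.6 ± 3.16 TPM, at −0.53 (SE 0.14). These 4 genes had an adjusted p of 0.0556 each in limma (n = 8 and 7 mice). Of 19 further Slc35 genes, 2 were lower, Slc35f4 and Slc35f6, whose cargo is not settled. These counts are descriptions of the list and set no group of enzymes apart.

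The counts of this list moved with tissue markers. Without WT mouse 7, 12 of the 84 were lower under vehicle, as were 8.45% of all genes in that fit. With the cortical marker level as a covariate 3 of the 84 genes passed p under 0.01 under vehicle, where 1.74% of all genes did in that fit, and with striatal markers 1 did, where 1.44% did. Under IMN 0 of 84 passed p under 0.01 in limma (0.703% of all genes) and 3 passed p under 0.05, all lower, where 2.9% of all genes were, with a median of −0.06 beside −0.03 for all genes. From vehicle to IMN in Brd1+/- mice 1 of 84 was higher (0.869% of all genes), B3galt5, a galactosyltransferase, at 39.3 ± 4.41 and 51.3 ± 8.69 TPM (SD, n = 7 and 8; log2 fold change 0.37, SE 0.10, adjusted p = 0.404), and none was lower. The comparison of IMN with vehicle in WT mice chose the family, so its count is a description from which nothing is read: 6 of 84 were lower at p under 0.01 (5.6% of all genes) and none was higher (1.35%), and without mouse 7 of the vehicle administered WT group 3 passed.

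**Figure D4:**
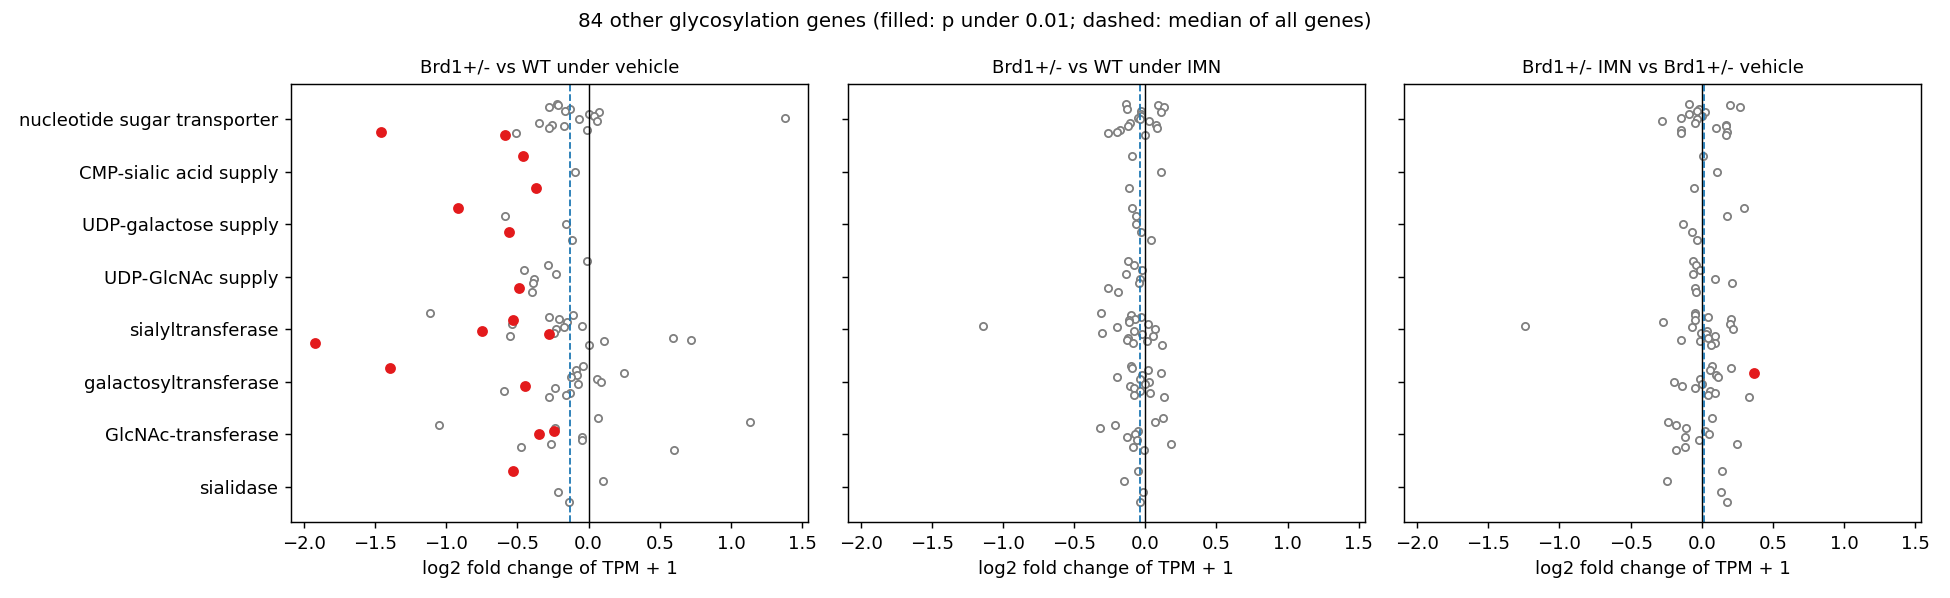
Log2 fold change of TPM + 1 (horizontal axis) of the 84 other glycosylation genes by group of enzymes, with 1 point per gene, for both comparisons of genotype and for IMN in Brd1+/- mice. Filled points passed p under 0.01 and the dashed line is the median of all genes. The 16 filled points under vehicle are all below 0, and none of the 84 points is filled in the comparison of genotypes under IMN.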

How the data were processed

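RNA from punches of the right CPu of 31 mice was sequenced by the authors as single-end reads on the BGISEQ-500. Per the labels and the study's methods, reads passed FastQC and Trimmomatic, were aligned to GRCm38 by HISAT2 (version 2.1.0) and were quantified by StringTie (version 1.3.4), and the deposited values are TPM. TPM keep no read depth. The study's methods give a minimum number of reads per mouse but the depth of each mouse is not given in the sources used here, so counting intervals cannot be given, and the count test the authors used was replaced by limma. Each mouse was 1 replicate and none was pooled.

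Each pair of groups was fitted alone with limma (version 3.58.1, R 4.3.3) on log2(TPM + 1) with a mean-variance trend, over genes above 0.1 TPM in at least 7 mice, with Benjamini-Hochberg adjustment over all of them. A fold change on this scale understates that of low genes. Thresholds were a nominal p of 0.01 and an FDR of 5%. Summaries used Python 3.11.15 with numpy 2.4.6, scipy 1.17.1 and pandas 2.3.3, and the fit was tested on simulated data. No member is tested for IMN in WT mice or for the interaction, nor Slc35a4 between genotypes, since these use the values that chose the family, and counts of listed genes for IMN in WT mice are descriptions. The comparisons share mice.

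The members and all gene lists were chosen with earlier results of these data known. Named were the members, Brd1, the annotated neighbours of each member, up to 5 listed glycosylation genes in each direction with the smallest p at p under 0.01 in each tested comparison, tissue markers, and the 3 genes (5 for Slc35a4) most like each member. Some genes that this rule names are not reported here. The other genes lower under vehicle were named after their values were seen. Listed genes Nanp and St6galnac1 did not pass the filter, and of 2 identifiers of St6galnac2 the lower was used. Alternatives were another pseudocount, filters, scaling, no trend, sample weights, 1 fit of all groups, a replicate block, marker covariates and leaving out each mouse.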

Additional observations from a re-analysis of the deposited data

Results flagged for a closer look

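In 2 of 20 combinations of a member and a group, the highest mouse stood apart from the others by the gap to its neighbour as a share of the whole range. Chance gives this in about 1 in 20 groups. For Slc35a3 it was mouse 5 of the IMN administered WT group, at 15.4 TPM with a gap of 0.644 of the range, and the same mouse had 1285 TPM of summed cortical markers, the most in its group. Without that mouse the log2 fold change of Slc35a3 was 0.0052 with IMN in WT mice and −0.085 between genotypes under IMN. For Slc35a4 it was mouse 1 of the vehicle administered WT group, at 44.0 TPM with a gap of 0.576 of the range, and with 2311 TPM of cortical markers. The part of these markers in either value was not tested. Without mouse 1 of the vehicle administered WT group the log2 fold change of Slc35a4 with IMN in WT mice was −0.72.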

How the results depend on the processing

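Apart from settings that leave out a mouse, 351 recomputed values counted as unchanged and 32 as moved. A further 12 counted as changed in sign and 8 as newly passed. Tested values counted as unchanged kept direction and side of the threshold, and counts stayed close. Values without a test counted as unchanged when they moved by less than the SD between mice, whatever their sign. Slc35a1, Slc35a2 and Slc35a5 with IMN in WT mice are among these and changed sign, so the 12 cover tested values only. Values averaged over both treatments were counted under vehicle and again under IMN. Slc35a4 with IMN in WT mice was −0.63 with median-of-ratios scaling, −0.62 with quantile normalization and −0.78 to −0.72 when each mouse was left out. With IMN in Brd1+/- mice, a striatal marker covariate turned Slc35a4 to 0.034 and Slc35a5 to −0.049, and leaving out mice gave Slc35a5 −0.049 to 0.084. Between genotypes under vehicle, Slc35a1 turned to 0.10 (median-of-ratios) and 0.13 (quantile), and Slc35a3 to 0.16 and 0.21, to 0.11 with cortical and 0.034 with striatal markers, and to between −0.076 and 0.038 with mice left out. Under IMN Slc35a1 turned to 0.026 and 0.026, and to between −0.060 and 0.021 with mice left out. Averaged over both treatments with median-of-ratios scaling, a choice made after seeing the data, it was 0.063. The cause was not tested.

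Members past an FDR of 5% under vehicle, 0 in the report, were 1 with all groups in 1 fit (19.5% of all genes), 2 with sample weights (29.5%), 2 over both treatments (5.93%) and 0 to 1 with mice left out (Slc35a5 without WT vehicle mouse 6, 19.9%; Slc35a2 without mouse 8, 23.8%). Under IMN none passed in the report, in any alternative setting of that comparison or with mice left out. The 2 over both treatments come from the fit of all mice, not from vehicle or IMN alone. Most single left-out mice ended these calls. Same-numbered mice did not pair (correlation of their deviations −0.39 to 0.41, at most 3 pairs over 0.1), and the replicate block gave 1 member under vehicle (15.4%), and 26 listed genes under vehicle and 3 for IMN in WT mice (17.7% and 5.08% of all genes at p under 0.01).

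Listed genes at p under 0.01, with the share of all genes in the same fit, were 16 under vehicle in the report (13.6%), 31 in 1 fit (19.7%), 3 with cortical markers (1.74%), 1 with striatal markers (1.44%), 10 with median-of-ratios scaling (9.22%) and 37 with weights (26.5%). For IMN in WT mice, where the counts are descriptions, 6 in the report (6.95%), they were 21 in 1 fit (13.5%), 3 with cortical (1.44%), 2 with striatal (1.28%) and 2 with erythroid markers (1.86%), 27 with weights (20.3%), and 3 without WT vehicle mouse 7 (4.58%). For IMN in Brd1+/- mice, 1 in the report (1.83%), they were 2 with cortical markers (2.07%), 3 with no filter (1.44%), 2 with no trend (1.85%) and 2 with weights (2.07%). Under IMN between genotypes, 0 in the report (0.703%), they were 1 with cortical (0.853%) and 1 with striatal markers (0.99%).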
